A study of Mus musculus with 6 samples.

Results

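The fibroblast growth factor (FGF) genes described here were 4 ligands, *Fgf2*, *Fgf7*, *Fgf10* and *Fgf18*, and 4 receptors, *Fgfr1*, *Fgfr2*, *Fgfr3* and *Fgfrl1*. They were chosen by gene symbol, and each had 1 row among the 19446 genes of the expression table of cultured murine cardiac fibroblasts (CFs). All 8 passed the filter on low values, which asked for 10 reads or more in 2 libraries or more and left 15948 genes to be tested. The libraries were 3 of wild type (WT) and 3 of CharmeKO CFs. CharmeKO mice carry an inserted poly(A) signal at the locus of *Charme*, a long non-coding RNA of heart muscle. Both genotypes are C57BL/6J, and the labels give an age of 5 weeks for the mice in both groups. The study's methods give a range of ages around 5 weeks for the animals of the explant cultures. The cells had grown out of atrial tissue pooled from littermates and were kept on fibronectin in IMDM medium with serum, with no treatment named for either group. The values therefore describe early-passage cultures and not fibroblasts in the heart. The question addressed by the comparison was how the loss of *Charme* changes these stromal cells and the signals they send to their neighbours. No row of the table was named *Charme*, so the targeted gene itself was not checked here.

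FGF ligands are secreted proteins that bind tyrosine kinase receptors (FGFR) on the cell surface, with heparan sulfate chains as a required partner. Ligand binding joins the receptors into dimers, and the signal runs through the adaptor Frs2 to the RAS-MAPK and PI3K-AKT pathways, while Sprouty proteins and dual-specificity phosphatases restrain it. In the heart, stromal cells are a known source of FGF ligands, and FGF signalling takes part in heart growth, coronary vessel formation and fibroblast proliferation.

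Which ligand a receptor accepts depends on splicing of the third immunoglobulin-like domain. The IIIb form of *Fgfr2*, typical of epithelia, is the main receptor of the ligands encoded by *Fgf7* and *Fgf10*. The table gave 1 value for the whole gene, so the sum over all splice forms is all that can be described for *Fgfr2*. The exon that defines the IIIb form is shown because it is what ties this receptor gene to 2 of the ligands. It was read 5′ to 3′ on the minus strand from GENCODE transcripts of build GRCm38, with no part set in capitals.
Fgfr2 exon IIIb: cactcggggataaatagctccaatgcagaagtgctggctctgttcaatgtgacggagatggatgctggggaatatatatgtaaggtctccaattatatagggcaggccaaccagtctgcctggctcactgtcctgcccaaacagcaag
The exon lies at chr7:130199758-130199905 and holds 148 bases. Of 17 coding *Fgfr2* transcripts in that annotation, 10 contain it.

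Recovered library sizes were 38330019 to 46797446 reads, and all values below are normalised reads, that is, reads divided by 1 size factor per library. Since these are bulk samples, fewer cells of a type and less RNA per cell cannot be told apart. All 10 fibroblast markers were in the table, led by *Col1a1* with 394739 to 818672 normalised reads. Their summed level was 1.07e+06 to 2.20e+06 in WT and 1.43e+06 to 1.73e+06 in CharmeKO. The log2 fold change of CharmeKO against WT was below 0 for 4 and above 0 for 6. It ran from −1.34 for *Thy1* to 0.79 for *Dcn*, and 0 were called at an adjusted p under 0.05 by limma. *Thy1* had 29470 normalised reads in WT library 3 and 2658 in CharmeKO library 3. Of 9 cardiomyocyte markers, *Myh6*, *Myh7*, *Actc1*, *Nppa*, *Pln* and *Myl7* had no row, and the summed level of the other 3 was 136 to 589 in WT and 158 to 794 in CharmeKO, with *Ryr2* at 0 in CharmeKO libraries 2 and 3. The summed level of the 6 endothelial markers in the table was 2699 to 3970 in WT and 1241 to 5721 in CharmeKO, most of it *Flt1*, while *Tie1* and *Emcn* had no row and *Cdh5* was at 0 in WT library 2 and CharmeKO library 3. Summed haematopoietic markers, 9 of 9 in the table, were 935 to 3894 in WT and 766 to 6147 in CharmeKO, with *Ptprc* and *Itgam* at 0 in CharmeKO library 3.

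Among the ligands, the genotypes overlapped throughout, and no ligand was called. *Fgf2* encodes basic FGF, a mitogen of fibroblasts and endothelial cells that leaves the cell without a classical signal peptide. The gene (GRCm38 chr3:37348346-37410108, plus strand) had 7260.0, 2524 and 21197 normalised reads in WT libraries 1 to 3 and 7841, 3648 and 1628 in CharmeKO libraries 1 to 3. The WT library 3 held the highest value and CharmeKO library 3 the lowest, while the other 4 libraries of the 2 genotypes interleaved. Means were 10327 ± 9707 in WT and 4373 ± 3169 in CharmeKO (SD, n = 3 each), and the log2 fold change was −1.02 (standard error 0.87, 95% interval −3.11 to 1.07). The 3 pairs of libraries with the same replicate number differed by 0.11, 0.53 and −3.70 on the log2 scale, so pair 3 alone carried the sign, and without WT library 3 the fold change was −0.25. The summed smooth muscle and pericyte markers, all 9 in the table, were 32573 to 40258 in WT, highest in library 3, and 26206 to 31282 in CharmeKO, also highest in library 3, where *Abcc9* was at 0. Most of that sum was *Pdgfrb*, which was lowest in WT library 3 with 17317 and stood at 22663 to 28861 elsewhere, whereas *Cnn1* had 14655 in WT library 3 and 81.6 to 978 elsewhere. *Myh11*, *Cspg4* and *Actg2* were also highest in WT library 3. *Rgs5*, *Notch3*, *Kcnj8* and *Abcc9* were highest in WT library 2 instead, with 997 for *Rgs5* there and 51.6 in WT library 3. Of the 9 markers limma called 0 (2 at an unadjusted p under 0.05), and DESeq2 with the replicate block called *Myh11* and *Actg2*. In the same list 8 had a fold change below 0, with a median of −1.90, 5 were lower in CharmeKO in all 3 pairs (14.0% of all genes), and *Cspg4* and *Actg2* did not overlap between the genotypes (4.11% of all genes). Their part in the *Fgf2* difference was not tested. An exon of *Gm43439* overlaps *Fgf2* on the same strand in GENCODE, and reads lying in both genes would be left out by the authors' counting.

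*Fgf7* encodes keratinocyte growth factor, a mesenchymal signal to epithelia. The gene (GRCm38 chr2:126034658-126091185, plus strand) had 1699, 3234 and 6676 normalised reads in WT and 1637, 6447 and 4562 in CharmeKO. Both libraries numbered 1 were the lowest, and the other 4 overlapped between the genotypes. The WT mean of 3870 ± 2549 and the CharmeKO mean of 4215 ± 2424 gave a log2 fold change of 0.13 (standard error 0.66, 95% interval −1.44 to 1.70). *Fgf10*, its closest relative in the family and a ligand of the same receptor form, is needed for limb and lung outgrowth in the embryo. The gene (GRCm38 chr13:118669791-118792115, plus strand) had 673, 4162 and 2394 normalised reads in WT and 414, 6701 and 1275 in CharmeKO. Both libraries numbered 2 were the highest and both numbered 1 the lowest, in either genotype. The log2 fold change was −0.31 (standard error 1.10, 95% interval −2.95 to 2.34). Without a replicate block, edgeR and DESeq2 on the recovered reads gave 0.22 and 0.21, in the direction of the untransformed means of 2409 ± 1745 in WT and 2797 ± 3408 in CharmeKO. With the replicate number as a block they gave −0.31 and −0.32, beside −0.31 by limma, so the sign turned with the block within both count tools.

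*Fgf18* belongs to the FGF8 subfamily and is best known from cartilage and bone. It was the ligand with the fewest reads, and the gene (GRCm38 chr11:33117430-33147400, minus strand) had 517, 84.3 and 151 normalised reads in WT and 747, 98.3 and 144 in CharmeKO. Both libraries numbered 1 exceeded every other library, and both numbered 2 were the lowest. The WT mean was 251 ± 233 and the CharmeKO mean 329.6 ± 362, and the log2 fold change was 0.23 (standard error 0.95, 95% interval −2.05 to 2.51). The 2 libraries in which *Fgf18* was highest also had the highest summed mesothelial and epithelial markers, of which 8 of 10 were in the table: this sum was 9896 and 10060.5 in WT and CharmeKO libraries 1 and 710 to 2528 in the other 4. In those libraries the sum was mostly *Upk3b* and *Upk1b*, and *Msln* was also highest there. Other markers of the list peaked elsewhere. *Wt1* had 213 and 301 normalised reads in WT and CharmeKO libraries 1 and 1500 in CharmeKO library 2. *Krt19* was highest in WT library 3 with 781, and *Krt18* in CharmeKO library 2 with 75.7. *Krt8* and *Epcam* had no row, *Cdh1* was at 0 in WT library 2, and *Muc16* was at 0 in WT library 2 and CharmeKO library 2. The haematopoietic sum was highest in the same 2 libraries, with 3894 in WT and 6147 in CharmeKO, as was each of its genes except *Cd14*. *Cd14* was lowest there, with 102 and 166 normalised reads, and highest in WT and CharmeKO libraries 2, with 612 and 793. The part of these markers in the *Fgf18* level was not tested.

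**Figure D1:**
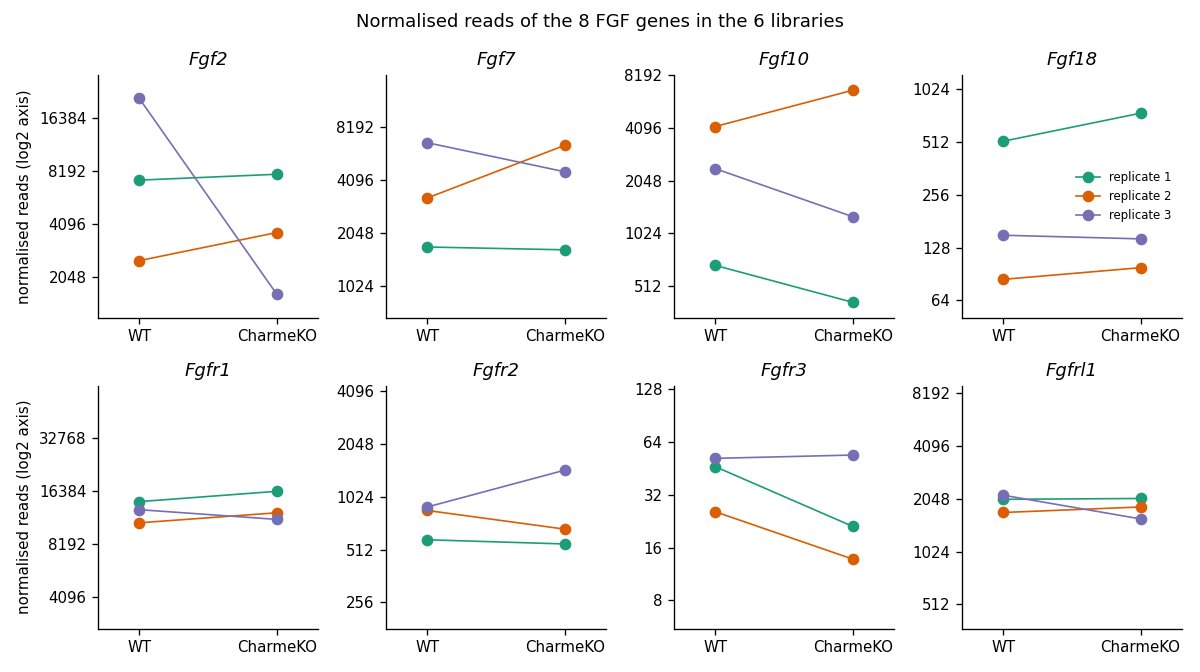
Normalised reads (log2 axis, the same number of doublings in every panel) of each FGF gene in the 3 WT and 3 CharmeKO libraries, with lines that join libraries of the same replicate number. *Fgf10* and *Fgf18* are ordered by replicate number in both genotypes, *Fgf2* runs from 21197 to 1628 within pair 3, and *Fgfr1* and *Fgfrl1* stay in a narrow band.

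*Fgfr1* and *Fgfrl1* varied less from culture to culture than any ligand did, and no receptor was called between the genotypes. *Fgfr1*, the main receptor of mesenchymal cells and a receptor of the *Fgf2* product, was the most abundant. The gene (GRCm38 chr8:25513654-25575718, plus strand) had 14259, 10799 and 12830.5 normalised reads in WT and 16326, 12316 and 11295 in CharmeKO. Both libraries numbered 1 were the highest, and the means were 12629 ± 1739 and 13312 ± 2659. The log2 fold change was 0.067 (standard error 0.22), and its 95% interval of −0.45 to 0.58 was far narrower than that of any ligand.

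*Fgfrl1* encodes an FGF receptor-like protein that binds ligands but lacks the intracellular kinase domain. The gene (GRCm38 chr5:108692382-108706924, plus strand) had 2033, 1710.5 and 2146 normalised reads in WT and 2056, 1838 and 1572 in CharmeKO. The genotypes overlapped, with the highest and the lowest value both in libraries numbered 3. The log2 fold change was −0.11 (standard error 0.18, 95% interval −0.53 to 0.32), and −0.0074 without CharmeKO library 3.

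*Fgfr2* (GRCm38 chr7:130162451-130266263, minus strand) had 583, 856 and 896 normalised reads in WT and 552, 670.5 and 1453 in CharmeKO. CharmeKO library 3 was above all others, and both libraries numbered 1 were the lowest. The WT mean was 779 ± 171 and the CharmeKO mean 892 ± 489.8. The log2 fold change was 0.088 (standard error 0.40, 95% interval −0.87 to 1.04), and without CharmeKO library 3 it was −0.33. *Fgfr3*, a receptor that restrains bone growth and that binds the *Fgf18* product, was near the limit of what these libraries resolve. The gene (GRCm38 chr5:33721674-33737068, plus strand) had 46.3, 25.6 and 51.6 normalised reads in WT and 21.2, 13.8 and 53.9 in CharmeKO, resting on 14 to 62 reads per library. The exact 95% Poisson intervals of the smallest and largest count were 7.65 to 23.5 and 47.5 to 79.5 reads, and they cover counting error only. The log2 fold change of *Fgfr3* was −0.63 (standard error 0.63, 95% interval −2.14 to 0.88), with pairs 1 and 2 at −1.09 and −0.85 and pair 3 at 0.061.

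Levels of different genes were compared as mean normalised reads per kilobase of exon over the 6 libraries. In that order the genes were *Fgfr1* with 1314 ± 207, *Fgf7* with 1245 ± 687, *Fgf2* with 1084 ± 1067, *Fgfrl1* with 680.2 ± 80.3, *Fgf10* with 566 ± 528, *Fgf18* with 244 ± 232, *Fgfr2* with 83.4 ± 33.3 and *Fgfr3* with 4.95 ± 2.41 (SD, n = 6). Neighbours in the upper part of this order were not separated: *Fgfr1* exceeded *Fgf7* in 3 of 6 libraries, *Fgf7* exceeded *Fgf2* in 3 of 6, and *Fgf2* exceeded *Fgfrl1* in 3 of 6. *Fgfrl1* exceeded *Fgf10*, *Fgf10* exceeded *Fgf18* and *Fgf18* exceeded *Fgfr2* in 4 of 6 libraries each. The last step was the exception, as *Fgfr2* exceeded *Fgfr3* in 6 of 6 libraries, by 4.17 ± 0.69 on the log2 scale.

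The make-up of the receptor transcripts varied less between libraries than that of the ligand transcripts. Of the summed receptor level per kilobase, *Fgfr1* made up 60.0 to 67.5%, *Fgfrl1* 30.2 to 35.6%, *Fgfr2* 2.25 to 7.80% and *Fgfr3* 0.0973 to 0.405%. Of the summed ligand level, *Fgf7* made up 21.2 to 68.8%, *Fgf2* 11.8 to 53.6%, *Fgf10* 3.78 to 38.6% and *Fgf18* 2.04 to 26.4%. *Fgfr1* was the first and *Fgfrl1* the second receptor in 6 of 6 libraries. Among the ligands the first place was held by *Fgf2* in libraries 1 of both genotypes and in WT library 3, and by *Fgf7* in the others.

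**Figure D2:**
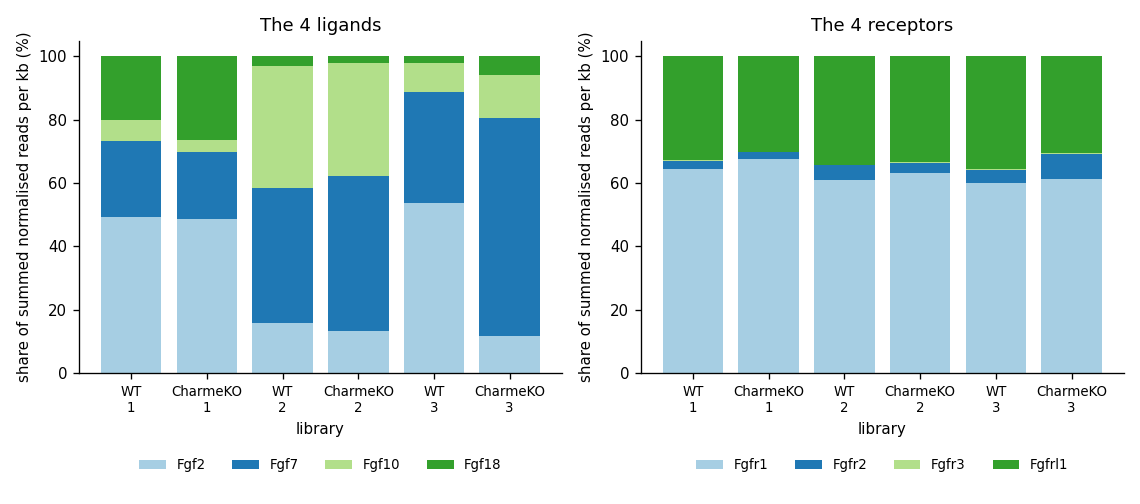
Share (%) of each gene in the summed normalised reads per kilobase of the 4 ligands (left) and the 4 receptors (right), 1 bar per library, with libraries of the same number side by side. *Fgfr1* holds 60.0 to 67.5% of the receptor bars, whereas *Fgf2* spans 11.8 to 53.6% of the ligand bars.

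The ratios of both pairs of related genes were compared directly, which removes what moves both genes of a pair together. The log2 ratio of *Fgf7* to *Fgf10*, which share a receptor form, was 0.82 ± 1.03 in WT and 1.25 ± 1.14 in CharmeKO (SD, n = 3 each), a difference of 0.44 with p = 0.5 in an exact two-sided permutation test, whose smallest possible p with 3 against 3 libraries is 0.1. The ratio was higher in the CharmeKO library in 3 of 3 pairs, by 0.64, 0.31 and 0.36, but the exact sign-flip test over 3 pairs cannot go below the p of 0.25 that it gave. The log2 ratio of *Fgfr1* to *Fgfr2* was 4.03 ± 0.51 in WT and 4.01 ± 0.98 in CharmeKO, a difference of −0.021 with p = 1 in the exact permutation test. Here the pairs pointed in different directions, with 0.27, 0.54 and −0.88.

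Across all 8 genes, limma with a mean-variance trend called 0 of 8 at an adjusted p under 0.05, as it called 0 of all 15948 genes (0.0%). At an unadjusted p under 0.05 it also called 0 of 8, against 143 of all genes (0.897%), and the lowest unadjusted p among the 8 was 0.282, for *Fgf2*. By DESeq2 on the recovered reads 8 of all genes passed (0.0502%), and with the replicate number as a block 64 passed (0.401%). None of the 8 FGF genes was among them. edgeR called 0 of all genes with or without the block, with 158 (0.991%) and 768 (4.82%) at an unadjusted p under 0.05. The genotypes separated completely for 0 of the 8 FGF genes and for 656 of all genes (4.11%), a share at which 0 of 8 is not unusual. The same direction in all 3 pairs was seen for 0 of the 8 and for 4855 of all genes (30.4%). The fold change was below 0 for 4 genes and above 0 for 4, with a median of −0.021 against 0.0022 over all genes. The widths of the intervals differ, so that a change of 1 or more on the log2 scale in either direction lay outside the interval for *Fgfr1* and *Fgfrl1* but inside it for the 4 ligands. With the replicate block the intervals were −0.71 to 0.97 for *Fgf7*, −0.32 to 0.77 for *Fgf18*, −1.23 to 0.62 for *Fgf10* and −3.44 to 1.40 for *Fgf2*, so that such a change was then outside the interval in both directions for *Fgf7* and *Fgf18*, in the upward direction for *Fgf10* and in neither for *Fgf2*.

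**Figure D3:**
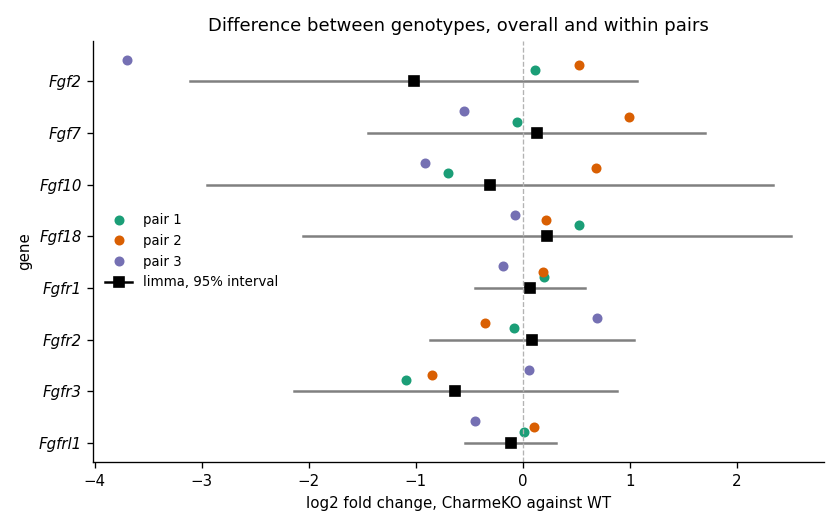
Log2 fold change of CharmeKO against WT for each FGF gene, with squares for limma's estimate, bars for its 95% interval and circles for the 3 differences between libraries of the same replicate number. All 8 intervals cross 0, and the circles of every gene lie on both sides of 0, with pair 3 of *Fgf2* at −3.70.

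The level of most FGF genes differed more between replicate numbers than between genotypes. For all 8 FGF genes the number took a larger share of the variance of log2 values than the genotype did, as it did for 88.9% of all genes. The number has 3 levels and the genotype 2, so the raw share of the number tends to be larger even where neither has an effect. The share of the number was 98.0% for *Fgf18*, 92.5% for *Fgf10*, 84.2% for *Fgf7*, 77.8% for *Fgfr1*, 76.9% for *Fgfr2* and 68.3% for *Fgfr3*, against a median of 73.8% over all genes. It was 30.0% for *Fgfrl1* and 20.8% for *Fgf2*, beside 11.9% and 17.6% for genotype, so in *Fgf2* the 2 shares were close. Of the variance of *Fgf2*, 61.5% belonged to neither term. Genotype took 0.628% for *Fgf7*, the least, and 19.5% for *Fgfr3*, the most, against a median of 5.91% over all genes.

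**Figure D4:**
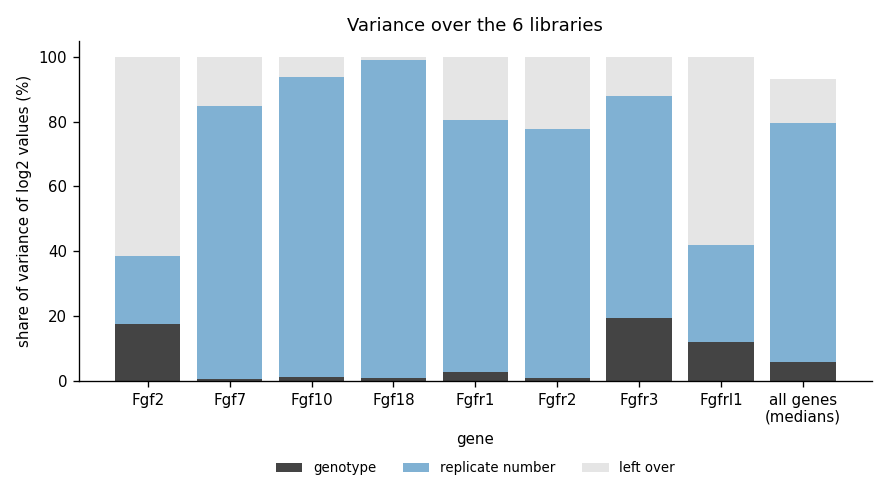
Share (%) of the variance of log2 values over the 6 libraries that goes with genotype, with replicate number and with neither, for each FGF gene and as medians over all 15948 genes tested (3 separate medians, so that this bar does not add up to 100%). *Fgf18* reaches 98.0% for the number, and *Fgf2* leaves 61.5% to neither.

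The libraries numbered 1 stood apart most often. In both of them *Fgf18* and *Fgfr1* were above, and *Fgf7*, *Fgf10* and *Fgfr2* below, every one of the other 4 libraries, which made 5 of 8 genes against 45.5% of all genes. For number 2 this held for 2 of 8 genes (34.4% of all genes), with *Fgf10* above and *Fgf18* below, and for number 3 for 2 of 8 (18.1%), with *Fgfr2* and *Fgfr3* above. For *Fgfr3* it rested on the size factors, since WT libraries 1 and 3 both had 47 recovered reads. The mean of *Fgf10* was 544 in the libraries numbered 1 and 5431 in those numbered 2, while that of *Fgf18* was 632 and 91.3, the opposite order between the same cultures. The labels do not say what a number stands for, and whether it marks a litter, a culture date or a sequencing lane cannot be told apart.

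The range over the libraries differed between the genes. The highest library exceeded the lowest 16.2-fold for *Fgf10*, 13.0-fold for *Fgf2*, 8.86-fold for *Fgf18* and 4.08-fold for *Fgf7*, and the SD of their log2 values stood at percentiles 80.1 to 93.2 of all genes. For the receptors these folds were 3.92 for *Fgfr3*, 2.63 for *Fgfr2*, 1.51 for *Fgfr1* and 1.37 for *Fgfrl1*. The SD of *Fgfr1* stood at percentile 21.1 and that of *Fgfrl1* at percentile 12.5, so the 2 most abundant receptors were among the steadier genes. *Fgfr3*, at percentile 75.2, had too few reads for its spread to be set beside that of the others.

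The genes whose pattern over the 6 libraries was closest were found by the root mean square difference of centred log2 values, among genes with a mean of at least 100 normalised reads. For *Fgf2* these were *Adra2a*, an adrenergic receptor (difference 0.26), and *Ctsc*, a lysosomal protease (0.35), and *Ctsc* had 6404 normalised reads in WT library 3 against 495 in CharmeKO library 3. For *Fgf7* they were *Adora2b*, an adenosine receptor (0.17), and *Tro* (0.23). For *Fgf10* they were *Sesn3*, a stress-induced sestrin (0.28), and *Angpt2*, a vascular ligand of the receptor Tie2 (0.35). *Angpt2* had 470 and 312 normalised reads in WT and CharmeKO libraries 1 and 5100.4 and 7097 in libraries 2, so it repeated the order of *Fgf10*. For *Fgf18* they were *Tssc4* and *Clba1* (both 0.29). The receptors had closer neighbours, with *Smim30* (0.030) and *Rit1* (0.033) for *Fgfr1*, and *Iba57* (0.031) and *Ublcp1* (0.038) for *Fgfrl1*. *Zfp60* (0.087) and *Ptgs1*, the constitutive cyclooxygenase (0.12), were closest to *Fgfr2*, and *Tmem200a* (0.19) and *Tmc7* (0.24) to *Fgfr3*. A small difference is easier to reach for a steady gene, so these values describe likeness within each gene and do not rank the 8.

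The rest of the pathway was read from 5 lists, in which the same fit called 0 genes. Of 18 other genes of the FGF family, which include the intracellular homologues *Fgf11* to *Fgf14*, 13 were in the table and 8 were tested. Of these 8, 5 were below and 3 above 0, with a median log2 fold change of −0.19. *Fgf23*, a bone hormone that controls phosphate, had the highest level among them, with 120.1, 1275 and 169 normalised reads in WT and 257, 552 and 324 in CharmeKO, and a log2 fold change of 0.27 (standard error 0.89). *Fgf11*, which the rule for named genes does not cover and which was added after its values were seen, came second with 43.3, 322 and 166 normalised reads in WT and 72.1, 313 and 224 in CharmeKO. *Fgf9* had 8.79 to 37.4 normalised reads in WT and 0 to 54.8 in CharmeKO, and *Fgf1* had 5.90 to 38.5 over the 6 libraries. *Fgf13*, which encodes an intracellular homologue that binds sodium channels, was at 0 in WT library 2 and CharmeKO library 3. The table had no row for *Fgf8*, *Fgf3*, *Fgf4*, *Fgf6* or *Fgf15*.

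Among 8 other receptors and binding partners, the klotho coreceptors *Kl* and *Klb* and the carrier *Fgfbp1* had no row, and 4 genes were tested, 3 below and 1 above 0, with a median of −0.43. Their main transcript was *Flrt2*, a membrane protein of a family that binds FGF receptors, with 3655, 2548 and 5939 normalised reads in WT and 2888, 1845 and 4022 in CharmeKO. The CharmeKO library was the lower one in 3 of 3 pairs for *Flrt2* and *Flrt1*, 2 of the 4 tested genes (14.0% of all genes). *Flrt1* rested on few reads, with 8, 10 and 30 recovered in WT and 3, 7 and 11 in CharmeKO. The genotypes overlapped for *Flrt2*, and its log2 fold change was −0.46 (standard error 0.40, adjusted p 0.9999 by limma). With the replicate block its adjusted p was 0.80 by limma (unadjusted p 0.0054) and 0.12 by DESeq2. *Flrt1* and *Flrt3* had means of 17.2 ± 13.7 and 57.4 ± 29.4 in WT and of 6.44 ± 3.36 and 47.8 ± 31.5 in CharmeKO.

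All 22 signal transducers were tested, with 13 below and 9 above 0 and a median of −0.030. The CharmeKO library was the lower one in all 3 pairs for 7 of them (14.0% of all genes) and the higher one for 3 (16.4%). *Braf*, a kinase of the MAPK cascade, was the only one whose genotypes did not overlap (4.11% of all genes), with 2896, 3483 and 3163 normalised reads in WT and 2408, 2426 and 2745 in CharmeKO. Its log2 fold change was −0.33 (standard error 0.15, unadjusted p 0.0673 and adjusted p 0.9999 by limma). *Cbl*, a ubiquitin ligase that takes receptors out of action, had a log2 fold change of −0.40 (standard error 0.25) with −0.45, −0.39 and −0.37 in the pairs. *Akt1*, the transducer with the most reads, stood at −0.27 (standard error 0.36).

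Of 19 feedback and target genes, 18 were tested, 10 below and 8 above 0, with a median of −0.030. *Dusp5*, a phosphatase that is induced by ERK and switches it off, was the only one without overlap (1 of 18, against 4.11% of all genes), with 2980.0, 2668 and 2500.4 normalised reads in WT and 2157, 1885 and 2327 in CharmeKO. Its log2 fold change was −0.36 (standard error 0.16, unadjusted p 0.0624 and adjusted p 0.9999 by limma). *Etv1*, an ETS transcription factor downstream of FGF, had 182, 413 and 241 normalised reads in WT and 140.4, 275 and 153 in CharmeKO, and each pair was lower in CharmeKO, by −0.37, −0.58 and −0.65. The feedback inhibitor *Spry2* stood at 0.30 (standard error 0.31). *Egr1*, an immediate early gene, followed the number instead: it had 84736 and 71957 normalised reads in WT and CharmeKO libraries 2 and 11472 to 22494 in the others, with 98.5% of its variance on the number.

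Of 20 genes that build or trim heparan sulfate, 18 were tested, 11 below and 7 above 0, with a median of −0.11. The sulfatases that remove sulfate groups needed for FGF binding had estimates of opposite sign, *Sulf1* at −0.83 (standard error 0.74) and *Sulf2* at 0.46 (standard error 0.43). *Sulf1* ranged from 5462 to 14985 normalised reads in WT and from 2009 to 14773 in CharmeKO, and *Sulf2* from 6351 to 15826 and from 9408 to 21276, so both overlapped. *Hs3st3b1*, a sulfotransferase, stood at −1.01 (standard error 0.74) with 29.9 to 158 normalised reads in WT and 15.7 to 40.0 in CharmeKO.

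**Figure D5:**
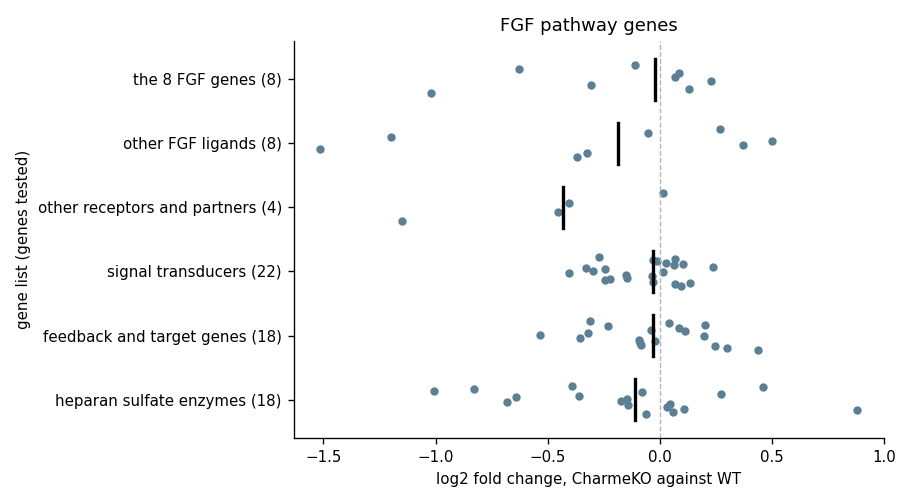
Log2 fold change of CharmeKO against WT for every tested gene of the FGF genes and of the 5 pathway lists (1 point per gene, black bar for the median, number of genes in parentheses). The medians lie between −0.43 and −0.021, and the lists straddle 0. The list labelled other FGF ligands also holds intracellular homologues.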

How the data were processed

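RNA-seq of cultured CFs was analysed, with 3 WT and 3 CharmeKO libraries grouped and numbered by their titles. RNA was selected by poly(A) and sequenced by strand. The authors aligned reads with STAR, counted them per gene on the reverse strand on an Ensembl release 87 annotation with *Charme* added, removed genes with few counts and normalised with DESeq2. The labels list the builds GRCh38 and GRCm39 without roles, and the study's methods give a mouse build 39 assembly. The deposited table thus holds a normalised signal, namely reads divided by a size factor per library. Each was a whole multiple of its library's smallest step: 100% of 116676 values came out whole within 1e-06, which gave the recovered reads. The 6 libraries held 38330019 to 46797446 reads, and 324 genes had no symbol. Gene positions were looked up by identifier in GENCODE M21 (GRCm38) and entered only the exon lengths and sequences. For *Fgfr2*, 1 transcript spanning over 1 Mb was left out of both.

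The test was limma 3.58.1 with its trend option on log2(value + 1), genotype only, two-sided, over the 15948 genes that reached 10 reads in 2 or more libraries, with Benjamini-Hochberg adjustment and a threshold of 0.05. Fold changes are on that scale, which understates changes of genes with few reads. Alternatives were edgeR 4.0.16 and DESeq2 1.42.0 on recovered reads, other scalings, pseudocounts of 0.5 and 5, other filters, the replicate number as a block, and leaving out each library. Single ratios had exact permutation tests (scipy 1.17.1). Work was done in R 4.3.3 and Python 3.11.15 with matplotlib 3.10.9, and the fits were tested on simulated data. The study describes its replicates in general as separate primary isolations, but the labels do not tie each library to one. The numbers were taken to pair the libraries by a rule that asked for r above 0.1 in each same-numbered pair. Deviations from the group means correlated over genes with r = 0.762, 0.514 and 0.217 in pairs 1, 2 and 3. In the other combinations r was −0.643 to 0.222. The 0.222 was for WT library 2 with CharmeKO library 3, so this measure did not set pair 3 apart. The differences within pair 3 and the fits with the block carry that limit.

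The FGF genes and the gene lists were chosen with earlier results of these data known. Within each pathway list, the text names the 3 genes with the lowest p and the gene with the highest mean, and 2 closest genes for each FGF gene. Cell type marker lists are given as ranges and counts. Protein sequences were not used here, and 1 gene that this rule names and 1 sequence are not reported here.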

Additional observations from a re-analysis of the deposited data

How the results depend on the processing

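None of the 8 FGF genes was called under any alternative, and *Fgfr3* had no value with a filter of 50 reads in 3 libraries. Over all genes, 8 were called by DESeq2 and 64 by DESeq2 with the replicate block, against 0 by limma and edgeR, and the block changed no other call. The direction of *Fgf2*, *Fgfr3* and *Fgfrl1* held under every alternative run. *Fgf10* turned to 0.22 with edgeR under TMM, and to 0.21 with edgeR under DESeq2 size factors and with DESeq2, all without the block. Leaving out each library gave log2 fold changes of −1.79 to −0.25 for *Fgf2*, −0.35 to 0.71 for *Fgf7*, −1.37 to 0.63 for *Fgf10*, −0.65 to 0.96 for *Fgf18*, −0.089 to 0.18 for *Fgfr1*, −0.33 to 0.37 for *Fgfr2*, −1.16 to −0.21 for *Fgfr3* and −0.21 to −0.0074 for *Fgfrl1*. The sign turned without WT library 1 for *Fgf7* (−0.35) and *Fgfr2* (−0.11), without WT library 2 for *Fgf10* (0.26), *Fgf18* (−0.34) and *Fgfr1* (−0.041), without CharmeKO library 1 for *Fgf10* (0.63), *Fgf18* (−0.65) and *Fgfr1* (−0.089), without CharmeKO library 2 for *Fgf7* (−0.28), and without CharmeKO library 3 for *Fgf7* (−0.032) and *Fgfr2* (−0.33). The *Fgf7* to *Fgf10* difference ran from −0.15 (without WT library 2) to 1.09, and the *Fgfr1* to *Fgfr2* difference from −0.46 to 0.51 (without CharmeKO library 3), with 0.27 without WT library 1. List medians ran from −0.92 to 0.15 for the other FGF family genes, −0.75 to −0.26 for receptors and partners, −0.14 to −0.046 for transducers, −0.19 to 0.16 for feedback and targets, and −0.21 to 0.042 for heparan sulfate genes. With 3 libraries a group, the data did not exclude changes that lie inside the intervals of the ligands. The smallest change that could be detected was not calculated, and the causes of the shifts between settings were not tested.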
